A study of Mus musculus with 18 samples.

Results

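Tbx21, Eomes, Prdm1, Id2, Zeb2, Runx3 and Bhlhe40 encode transcriptional regulators of effector differentiation in CD8+ T cells. These 7 genes were chosen by symbol, out of 19549 symbols in the 3 deposited tables, and all 7 were present in every table and passed every filter on low values. RNA sequencing covered 18 libraries of mouse CD8+ T cells in 8 groups. Cultured cells came as Nr4a1-OV (infected with a virus that enhances Nr4a1 expression, 2 libraries) and its control RV-GFP (2 libraries), and as Nr4a1 WT and Nr4a1 KO cells (2 libraries each) that were activated from the naive state with 2 µg/mL of plate-bound antibodies to CD3 and CD28. All 8 cultured libraries came from cells that received PMA and ionomycin for 2 h, agents that switch on signalling downstream of the T cell receptor. Tumour-infiltrating lymphocytes (TIL) were OT-I cells, which carry a transgenic receptor for an ovalbumin peptide. Those of WT genotype were sorted as Nr4a1RFP+ or Tim-3+ cells (2 libraries each) on day 21 after tumour cells were given, and Ly108+ cells were sorted from Nr4a1 WT and Nr4a1 KO TIL (3 libraries each; Nr4a1+/+ and Nr4a1-/- in the series text). The sources used here give neither ages nor the tumour line, nor separate animals or cultures behind the replicates; p-values therefore cover the scatter among libraries, which may be technical. Libraries were built by BGI or by Smartseq2 according to RNA amount, which is not stated per library.

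T-bet (Tbx21) and Eomes are T-box factors that share target genes such as those of cytotoxic granules, and T-bet is linked to terminal effector cells while Eomes is linked to memory and exhausted cells. Blimp-1 (Prdm1) represses memory genes and is opposed by Bcl6. Id2 binds E proteins and keeps them from DNA, with Id3 as its counterpart in naive and memory cells. Zeb2 is a zinc finger repressor that acts with T-bet in terminal effector cells, whereas its paralog Zeb1 is linked to memory. Runx3 holds the CD8 lineage and promotes cytotoxic and tissue-resident programmes. Bhlhe40 is a basic helix-loop-helix factor that is induced by T cell receptor signalling and promotes cytokine production. NR4A1 (Nur77) is a nuclear receptor whose gene is switched on quickly by the same signalling.

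The bases upstream of 4 start sites are printed because Prdm1 and Eomes had the largest fold changes between cultured libraries labelled Nr4a1 KO and Nr4a1 WT, and because the windows of Prdm1, Zeb2 and Runx3 were the ones that held a searched motif. Sequences are RefSeq's on GRCm38.p6, each the 250 bases before a start site, 5′ to 3′ on the gene's strand, with motif matches in capitals.
Prdm1, chr10:44458749-44458998, minus strand: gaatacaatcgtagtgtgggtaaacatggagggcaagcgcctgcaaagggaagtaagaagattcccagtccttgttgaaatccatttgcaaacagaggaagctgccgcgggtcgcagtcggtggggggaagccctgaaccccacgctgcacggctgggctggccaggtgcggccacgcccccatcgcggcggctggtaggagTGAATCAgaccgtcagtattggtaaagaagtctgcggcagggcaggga
Eomes, chr9:118477939-118478188, plus strand: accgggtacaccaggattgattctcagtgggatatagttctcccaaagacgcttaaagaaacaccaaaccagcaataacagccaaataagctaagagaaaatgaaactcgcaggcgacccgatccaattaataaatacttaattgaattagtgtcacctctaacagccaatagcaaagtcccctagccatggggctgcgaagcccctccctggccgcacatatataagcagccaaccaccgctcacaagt
Zeb2, chr2:45110278-45110527, minus strand: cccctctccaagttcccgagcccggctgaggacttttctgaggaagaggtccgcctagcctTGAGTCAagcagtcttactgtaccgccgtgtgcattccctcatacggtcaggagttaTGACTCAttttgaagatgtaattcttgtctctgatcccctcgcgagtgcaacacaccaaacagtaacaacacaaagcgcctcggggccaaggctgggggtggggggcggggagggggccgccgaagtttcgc
Runx3, chr4:135120395-135120644, plus strand: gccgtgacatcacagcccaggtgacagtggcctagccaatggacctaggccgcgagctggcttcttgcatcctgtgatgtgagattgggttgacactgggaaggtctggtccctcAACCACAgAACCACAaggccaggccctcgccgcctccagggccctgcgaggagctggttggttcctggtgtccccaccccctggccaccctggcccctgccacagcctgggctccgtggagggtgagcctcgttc
The promoter table held 10 windows for 6 of the 7 genes, with 4 windows for Zeb2, 2 for Runx3 and none for Bhlhe40. Motifs were chosen with these sequences in view and searched on both strands; no match overlapped another. The AP-1 motif TGANTCA matched 48 bases upstream of the Prdm1 start, and 189 and 132 bases upstream of this Zeb2 start, against 6.75% of all 32851 promoter windows of the same length. The Runx motif TGTGGTT, as its reverse complement, matched 135 and 127 bases upstream of this Runx3 start, against 4.4% of all windows. The NR4A monomer motif AAAGGTCA and the T-box motif AGGTGTGA were in none of the 10 windows, against 1.34% and 1.12% of all windows. A match describes letters only, and binding was not measured in these data.

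Cultured libraries held 16769720 to 17119726 counts each, and reads recovered from the tumour values came to 15173063 to 24129023 a library. All 6 CD8+ T cell markers (Cd3d, Cd3e, Cd3g, Cd8a, Cd8b1 and Cd2) averaged at least 1 RPKM (reads scaled by gene length and library size) in each of the 8 groups. Nr4a1 stood at 1513 and 1447 RPKM in Nr4a1-OV and at 565 and 624 RPKM in RV-GFP. Nr4a1RFP+ cells held 113 and 115 RPKM of it and Tim-3+ cells 132 and 125 RPKM. Nr4a1 RNA was thus no higher in the cells sorted as Nr4a1RFP+, and their comparison is one between sort gates. Nr4a1 was no lower in libraries labelled Nr4a1 KO than in WT libraries. In culture the KO label had 103 and 103 RPKM against 82.7 and 96.3 RPKM, and in Ly108+ cells 112, 101 and 102 RPKM against 53.9, 46.4 and 45.0 RPKM. The sources used here do not say whether the counted exons lie outside the deleted part, so a direction drawn from these groups is one between libraries labelled KO and WT. The columns used for Tim-3+ cells are named Tex in the authors' table and were assigned by elimination among the labelled groups. Nr4a1RFP+ cells were the other labelled group of that table, which also held 2 columns named DN that matched no labelled library. In bulk samples, fewer cells of a type and less RNA per cell cannot be told apart.

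Tbx21 (chr11:97098071-97115331, minus strand) was highest in the virus-infected cultures. It had 125 and 129 RPKM in RV-GFP and at 98.5 and 103 RPKM in Nr4a1-OV, against 34.4 and 33.5 RPKM in cultured Nr4a1 WT and 32.2 and 31.4 RPKM in libraries labelled Nr4a1 KO. Among TIL it held 48.2 and 53.0 RPKM in Tim-3+ cells and 38.2 and 37.9 RPKM in Nr4a1RFP+ cells. The Ly108+ libraries held 37.4, 39.9 and 37.5 RPKM (WT) and 35.5, 38.2 and 38.8 RPKM (labelled KO). Both Ly108+ groups and Nr4a1RFP+ cells overlapped, and each of the other groups lay apart from its neighbours in the order of levels. The highest group mean was 4.0 times the lowest, on RPKM that were normalised separately in each table.

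Eomes (chr9:118478212-118486132, plus strand) ran in another order. Its highest levels were 62.6 and 57.2 RPKM in cultured libraries labelled Nr4a1 KO and 45.4 and 49.1 RPKM in Nr4a1-OV, with 24 and 25 RPKM in RV-GFP and 18.6 and 19.8 RPKM in Nr4a1 WT. Tim-3+ cells held 20.5 and 17 RPKM and Nr4a1RFP+ cells 28.1 and 23.7 RPKM. Ly108+ libraries held 37.2, 29.1 and 29.2 RPKM (WT) and 36.1, 28.4 and 27.7 RPKM (labelled KO). Replicate 1 was the highest library in both Ly108+ groups, and the ranges of these groups overlapped. The span from lowest to highest group mean was 3.2-fold.

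Prdm1 (chr10:44437177-44528501, minus strand) was the least abundant of the 7 genes in every group except Tim-3+ cells and Ly108+ cells labelled KO, where Zeb2 was lower. Tim-3+ cells held 17.4 and 19.2 RPKM, against 2.39 and 2.30 RPKM in Nr4a1RFP+ cells. Ly108+ libraries held 2.24, 1.74 and 1.88 RPKM (WT) and 2.78, 1.83 and 1.84 RPKM (labelled KO). In culture, Nr4a1 WT held 0.270 and 0.138 RPKM, from 27 and 14 counts, and the libraries labelled KO held 0.999 and 1.46 RPKM, from 96 and 143 counts. Nr4a1-OV held 1.09 and 1.16 RPKM and RV-GFP 0.946 and 0.928 RPKM. The Tim-3+ mean was 89.7 times that of cultured Nr4a1 WT, the widest span of the 7 genes.

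Id2 (chr12:25093799-25097140, minus strand) was lower in every cultured library than in any TIL library. It stood at 30.8 and 35.4 RPKM in Nr4a1-OV, 24.9 and 24.6 RPKM in RV-GFP, 19 and 17.5 RPKM in Nr4a1 WT and 37.4 and 35.8 RPKM in libraries labelled KO. Ly108+ libraries held 197, 156 and 155 RPKM (WT) and 178, 172 and 173 RPKM (labelled KO), and Nr4a1RFP+ cells 263 and 195 RPKM. Tim-3+ cells held 1162 and 783 RPKM, above every other library, and there Id2 was the most abundant of the 7 genes. The span was 53.3-fold.

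Zeb2 (chr2:44983632-45117395, minus strand) followed Tbx21 in being highest in virus-infected cultures, at 11.8 and 11.3 RPKM in RV-GFP and 8.09 and 7.61 RPKM in Nr4a1-OV. Cultured Nr4a1 WT held 1.16 and 1.24 RPKM, the lowest of all groups, and the libraries labelled KO 2.66 and 2.85 RPKM. Nr4a1RFP+ cells at 3.34 and 3.15 RPKM and Tim-3+ cells at 3.31 and 3.23 RPKM overlapped. Ly108+ libraries held 2.47, 2.00 and 2.06 RPKM (WT) and 2.14, 1.49 and 1.63 RPKM (labelled KO), with replicate 1 highest in both groups. The annotation places the antisense gene Zeb2os over Zeb2, and antisense genes over Eomes, Runx3 and Bhlhe40 as well. The sources used here do not state a strand setting for the counting, so reads of these partners cannot be told apart.

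Runx3 (chr4:135120652-135177990, plus strand) had the narrowest span, 3.05-fold. It was highest in Ly108+ cells, at 59.3, 68.3 and 70.1 RPKM (WT) and 60.2, 72.1 and 71.7 RPKM (labelled KO), with replicate 1 lowest in both groups. Virus-infected cultures overlapped at 51.9 and 50.8 RPKM (Nr4a1-OV) and 49.6 and 53.6 RPKM (RV-GFP). Cultured libraries labelled KO held 36.5 and 39.2 RPKM and WT 27.8 and 29.6 RPKM. Tim-3+ cells held 29.8 and 35.0 RPKM, above the 22.2 and 22.4 RPKM of Nr4a1RFP+ cells.

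Bhlhe40 (chr6:108660629-108666925, plus strand) was the most abundant of the 7 genes in 6 of the 8 groups. It reached 857 and 934 RPKM in Nr4a1RFP+ cells and 825 and 882 RPKM in Tim-3+ cells, ranges that overlapped. Ly108+ libraries held 474, 424 and 421 RPKM (WT) and 487, 455 and 451 RPKM (labelled KO). All cultured libraries lay below the TIL libraries, at 154 and 162 RPKM in those labelled KO, 125 and 124 RPKM in Nr4a1-OV, 89.4 and 94.7 RPKM in RV-GFP and 63.1 and 64.9 RPKM in WT. The group means spanned 14-fold.

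**Figure D1:**
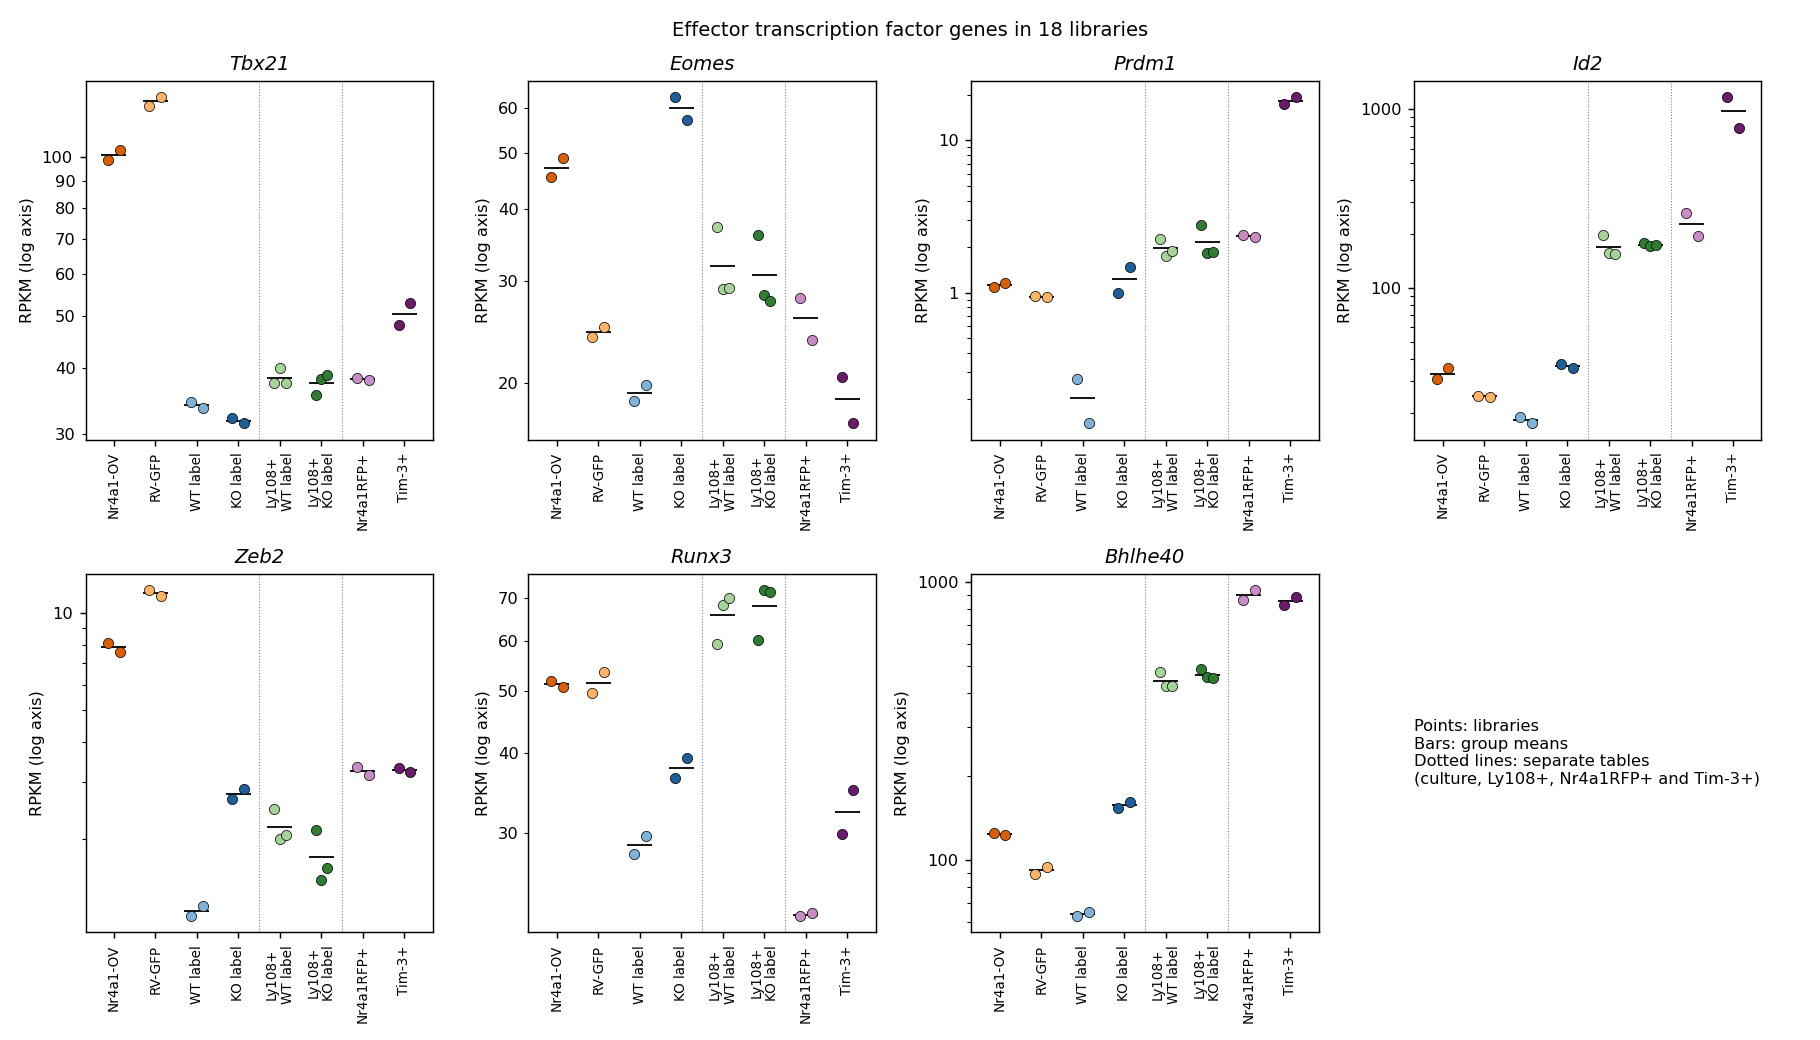
RPKM of the 7 genes on log axes, with 1 point per library, a bar for each group mean and dotted lines between separately normalised tables. Tim-3+ cells stand highest for Prdm1 (17.4 and 19.2 RPKM) and Id2 (1162 and 783 RPKM), and RV-GFP cells for Tbx21 and Zeb2.

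The comparison of Nr4a1-OV with RV-GFP asked what enhanced Nr4a1 expression does to the effector regulators in culture. Eomes rose 1.94-fold (log2 fold change 0.95, SE 0.06, adjusted p = 2.14e-11 by edgeR's quasi-likelihood test with Benjamini-Hochberg adjustment). Bhlhe40 rose by 0.44 on the log2 scale (adjusted p = 2.27e-07, edgeR) and Id2 by 0.42 (adjusted p = 2.17e-05, edgeR). Zeb2 fell by 0.55 (adjusted p = 2.43e-08, edgeR) and Tbx21 fell by 0.33 (adjusted p = 7.46e-06, edgeR), so that the T-box pair went in opposite directions. Prdm1 (log2 fold change 0.27, 95% interval -0.14 to 0.68) and Runx3 (log2 fold change -0.00, 95% interval -0.12 to 0.11) did not pass the threshold of an adjusted p of 0.05. With 3 of the 7 genes higher and 2 lower, the count stands beside 60.9% of all 14994 genes called in either direction, 31.3% higher and 29.6% lower. Their median log2 fold change was 0.27, and that of all genes 0.02. Summed NK and innate lymphocyte markers (3 of 5 in this table) stood at 2.00 to 2.19 RPKM in Nr4a1-OV and 10.7 to 10.8 RPKM in RV-GFP, mostly Il1rl1 at means of 1.68 and 9.46 RPKM. CD4 and regulatory T cell markers (all 5 in this table) summed to 79.8 to 80.2 RPKM in Nr4a1-OV and 41.8 RPKM in RV-GFP, but moved in both directions. Foxp3, the regulatory T cell factor, averaged 55.9 and 0.699 RPKM (log2 fold change 6.32, adjusted p = 3.45e-20, edgeR) and Ikzf2, which encodes Helios, 14.7 and 1.72 RPKM (3.10, adjusted p = 2.14e-17, edgeR). Cd40lg, which encodes CD40 ligand, averaged 5.54 and 37.4 RPKM (-2.75, adjusted p = 2.19e-15, edgeR), and Cd4 was at 0.123 and 0.138 RPKM. Tumour and stroma markers (3 of 5 in this table) summed to 10.9 to 11.3 RPKM in Nr4a1-OV and 6.11 to 6.40 RPKM in RV-GFP. Of the 3 tested, 2 were called higher and 0 lower. B and plasma cell markers (3 of 5) summed to 2.24 to 2.48 and 1.13 to 1.42 RPKM, with 2 of 2 tested higher. Myeloid markers (3 of 5) summed to 2.75 to 2.81 and 3.94 to 4.46 RPKM, with 1 of 2 tested lower. The part of these markers in the results was not tested.

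The libraries labelled Nr4a1 KO differed from Nr4a1 WT in culture by higher levels of 6 of the 7 genes. Prdm1 rose 6.03-fold (log2 fold change 2.59, SE 0.25, adjusted p = 4.63e-08, edgeR), the largest change of the 7. Eomes rose 3.13-fold (log2 fold change 1.64, adjusted p = 9.32e-15, edgeR). Bhlhe40 rose by 1.31 on the log2 scale (adjusted p = 2.65e-14, edgeR), Zeb2 by 1.20 (adjusted p = 2.88e-11, edgeR) and Id2 by 1.01 (adjusted p = 3.01e-10, edgeR). Runx3 rose by 0.40 (adjusted p = 1.05e-05, edgeR). Tbx21 had a log2 fold change of -0.09 (95% interval -0.21 to 0.03, adjusted p = 0.21, edgeR). Of all genes, 18.4% were called higher and 21.6% lower, 40.1% together; the median log2 fold change was 1.20 over the 7 genes and -0.03 over all genes. Summed myeloid markers (3 of 5 in this table, Csf1r and Tyrobp not among its rows) stood at 12.5 to 13.1 RPKM in libraries labelled KO and 4.40 to 4.73 RPKM in WT. Nearly all of that sum was Cd68, at means of 12.6 and 4.47 RPKM, while Lyz2 (0.197 and 0.0423 RPKM) and Itgam (0.0461 and 0.0549 RPKM) were near 0. CD4 and regulatory T cell markers summed to 16 to 17.1 RPKM under the KO label and 21.6 to 23.4 RPKM in WT, with Zbtb7b called higher and Foxp3, Cd40lg and Ikzf2 called lower by edgeR. Tumour and stroma markers (3 of 5 in this table) summed to 12.6 to 13.1 RPKM under the KO label and 19.8 to 22.5 RPKM in WT. Most of that sum was Pecam1, at means of 11.8 and 19.2 RPKM, while Pmel (0.891 and 1.72 RPKM) and Col1a1 (0.136 and 0.240 RPKM) were low. The part of these markers was not tested.

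Eomes, Bhlhe40 and Id2 were thus higher both with enhanced Nr4a1 and in libraries labelled Nr4a1 KO, each against its own control, in comparisons that share no library. Zeb2 was the gene called in opposite directions, lower in Nr4a1-OV and higher in libraries labelled KO. When the difference between both effects was tested in the same fit, all 7 genes came out lower for Nr4a1-OV than for the KO label, against 26.2% of all genes called lower and 55.8% in either direction. The gap was -2.32 on the log2 scale for Prdm1 (adjusted p = 3.77e-06, edgeR), -1.76 for Zeb2 (adjusted p = 1.23e-12, edgeR) and -0.87 for Bhlhe40 (adjusted p = 1.78e-09, edgeR). It was -0.69 for Eomes, -0.58 for Id2, -0.40 for Runx3 and -0.24 for Tbx21 (adjusted p from 6.68e-07 to 0.0115, edgeR). The call of Tbx21 ended without Nr4a1-OV replicate 1 (adjusted p = 0.0531, edgeR).

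Both controls also differed from each other. RV-GFP cells exceeded Nr4a1 WT cells for all 7 genes, beside 32.4% of all genes called higher, 38.6% lower and 71.0% in either direction. Zeb2 was 9.68-fold higher (log2 fold change 3.28, SE 0.07, adjusted p = 1.09e-19, edgeR), Prdm1 4.60-fold (adjusted p = 2.37e-07, edgeR) and Tbx21 3.76-fold (adjusted p = 1.3e-17, edgeR). The other 4 genes differed by 0.36 (Eomes) to 0.85 (Runx3) on the log2 scale. Infection and the way cells were activated differ between these groups and cannot be told apart, and each control is shared with a comparison given above. NK and innate lymphocyte markers summed to 10.7 to 10.8 RPKM in RV-GFP and 2.29 to 2.83 RPKM in Nr4a1 WT. Most of that sum was Il1rl1, at means of 9.46 and 1.88 RPKM. Tumour and stroma markers summed to 6.11 to 6.40 and 19.8 to 22.5 RPKM, mostly Pecam1 at means of 5.26 and 19.2 RPKM. CD4 and regulatory T cell markers summed to 41.8 and 21.6 to 23.4 RPKM, with Cd40lg called higher and Foxp3, Ikzf2 and Zbtb7b lower by edgeR. Their part was not tested.

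**Figure D2:**
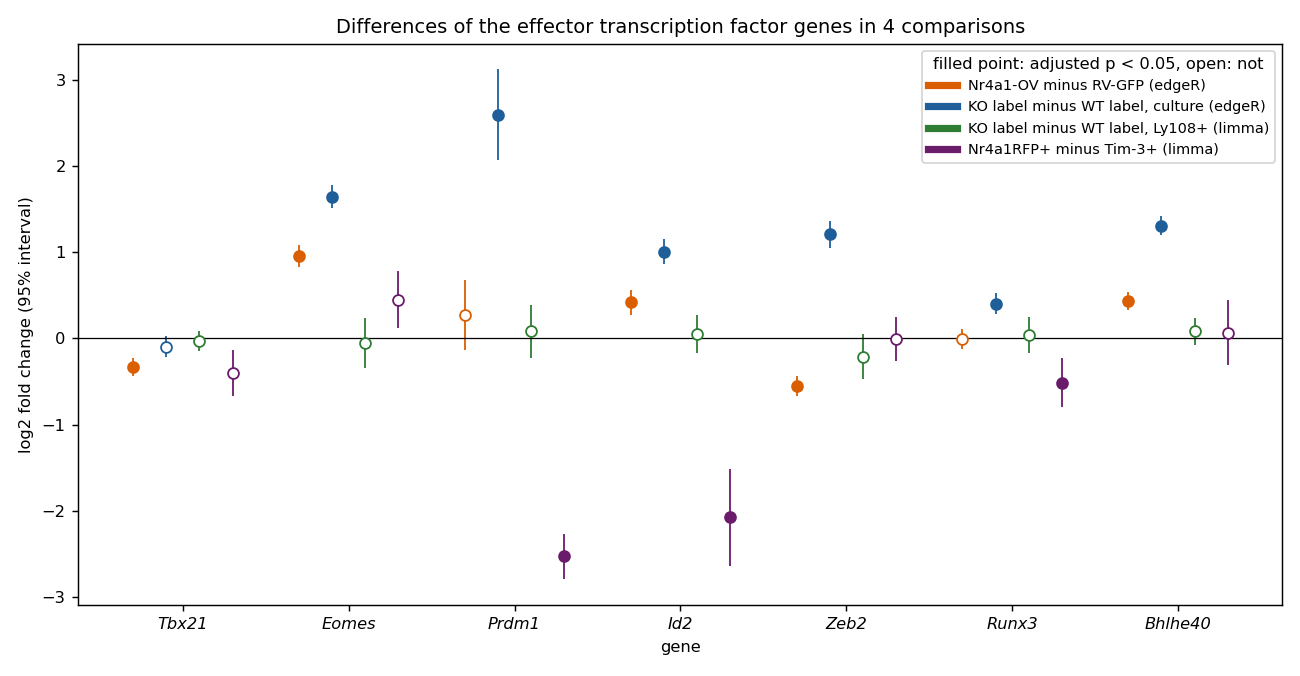
Log2 fold changes of the 7 genes in 4 comparisons with 95% intervals; filled points passed an adjusted p of 0.05, edgeR values are from counts and limma values from log2(RPKM + 1). Prdm1 lies at 2.59 for the KO label in culture and at -2.53 for Nr4a1RFP+ against Tim-3+ cells, while all 7 Ly108+ points are open and lie near 0.

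In Ly108+ TIL, a population that holds stem-like exhausted cells, none of the 7 genes passed the threshold between libraries labelled KO and WT. None had an unadjusted p under 0.05 by limma on log2(RPKM + 1), and edgeR on recovered reads called none, with Zeb2 alone under an unadjusted 0.05. Of all 11265 genes, 4.45% were called, 2.04% higher and 2.41% lower. Zeb2 had the largest difference, a log2 fold change of -0.21 (95% interval -0.47 to 0.05, adjusted p = 0.3, limma). The intervals of Tbx21 (-0.15 to 0.09), Bhlhe40 (-0.08 to 0.24) and Runx3 (-0.17 to 0.25) were the narrowest, with that of Id2 at -0.17 to 0.27. Those of Eomes (-0.34 to 0.24) and Prdm1 (-0.22 to 0.39) were wider. The median was 0.04 over the 7 genes and 0.00 over all genes tested. Summed myeloid markers stood at 85.5 to 120 RPKM in libraries labelled KO and 56.7 to 70.6 RPKM in WT (all 5 in this table, 3 averaging at least 1 RPKM), mostly Lyz2 at means of 81.0 and 45.7 RPKM. NK and innate lymphocyte markers summed to 5.53 to 6.59 RPKM against 3.40 to 4.34 RPKM (3 of 5 in this table), mostly Fcer1g at means of 4.56 and 2.64 RPKM. Tumour and stroma markers (3 of 5 in this table) summed to 49.9 to 54.2 RPKM against 48.0 to 49.3 RPKM. Of these, Col1a1 alone was called, higher at means of 4.70 and 1.35 RPKM. CD4 and regulatory T cell markers (4 of 5 in this table) summed to 18.3 to 21.2 RPKM against 22.3 to 24.9 RPKM. Among them Ikzf2 alone was called, lower at means of 13.4 and 17.9 RPKM. The part of these lists was not tested.

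The effect of the KO label was then compared between Ly108+ cells and culture in a limma fit of 10 libraries. It was smaller in Ly108+ cells for 5 of the 7 genes, against 11.8% of 11693 genes called lower, 14.1% higher and 25.9% in all. The difference was -1.64 for Eomes (SE 0.18, adjusted p = 0.000231, limma), -1.21 for Bhlhe40 (adjusted p = 2.39e-05, limma), -0.98 for Zeb2 (adjusted p = 0.00169, limma) and -0.92 for Id2 (adjusted p = 0.00116, limma) on the log2(RPKM + 1) scale. Prdm1 differed by -0.80 (adjusted p = 0.0191, limma), a value that the pseudocount of 1 shrinks for so low a gene; with 0.1 it was -2.03. The call of Prdm1 ended without cultured Nr4a1 WT replicate 2 (adjusted p = 0.0751, limma) or the cultured library labelled KO replicate 2 (adjusted p = 0.0859, limma). Runx3 at -0.34 (adjusted p = 0.0801, limma) passed without Ly108+ Nr4a1 WT replicate 1 (adjusted p = 0.0359, limma), and Tbx21 stood at 0.06 (adjusted p = 0.564, limma).

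Nr4a1RFP+ cells held less Prdm1, Id2 and Runx3 than Tim-3+ cells, the latter a gate for the checkpoint receptor of terminally exhausted cells. Prdm1 fell by 2.53 on the log2(RPKM + 1) scale (SE 0.11, adjusted p = 6.39e-05, limma), and the authors' deposited table gives a log2 fold change of -2.96. Id2 fell by 2.07 (SE 0.24, adjusted p = 0.00141, limma). Runx3 fell by 0.51 (adjusted p = 0.0266, limma), a call that ended without Nr4a1RFP+ replicate 1 (adjusted p = 0.209, limma) or 2 (adjusted p = 0.226, limma). Tbx21, with a log2 fold change of -0.40 (adjusted p = 0.0501, limma), and Eomes, with 0.45 (adjusted p = 0.0711, limma), missed the threshold. Without Tim-3+ replicate 1 their log2 fold changes were -0.47 and 0.57, and without replicate 2 they were -0.33 and 0.32. Tbx21 passed with edgeR on recovered reads (adjusted p = 0.0313).

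Zeb2 (log2 fold change -0.01, 95% interval -0.26 to 0.25) and Bhlhe40 (0.07, 95% interval -0.30 to 0.44) did not pass between Nr4a1RFP+ and Tim-3+ cells. The 3 genes called lower stand beside 8.61% of 9508 genes called lower, 9.08% higher and 17.7% called in either direction. The median was -0.40 over the 7 genes and -0.01 over all genes. Markers of NK and innate lymphocytes (3 of 5 in this table) summed to 32.9 to 39.7 RPKM in Tim-3+ cells and 4.50 to 6.31 RPKM in Nr4a1RFP+ cells. Fcer1g carried that sum, at means of 34.3 and 4.05 RPKM, and was lower in Nr4a1RFP+ cells by a log2 fold change of -2.82 (adjusted p = 0.000131, limma). Il1rl1 stood at 1.22 and 1.20 RPKM in Tim-3+ and Nr4a1RFP+ cells, and Klrb1c at 0.780 and 0.158 RPKM. Summed myeloid markers stood at 20.5 to 21.6 RPKM in Tim-3+ and 43.0 to 52.3 RPKM in Nr4a1RFP+ cells, a sum carried by Cd68 (means of 14.1 and 42.6 RPKM), while Tyrobp went the other way (2.82 and 0.858 RPKM). Of the 3 myeloid markers tested, 1 was called higher and 1 lower in Nr4a1RFP+ cells. CD4 and regulatory T cell markers summed to 8.39 to 8.86 RPKM in Tim-3+ and 20.6 to 25.1 RPKM in Nr4a1RFP+ cells, mostly Ikzf2. Tumour and stroma markers summed to 7.23 to 7.59 and 14.5 to 14.6 RPKM in the same order, mostly Pecam1 at means of 5.72 and 11.1 RPKM. The part of these markers in the results was not tested.

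Ratios within a library set each regulator beside its paralog or antagonist. The ratio of Eomes to Tbx21 RPKM was 0.540 and 0.590 in cultured Nr4a1 WT, 1.95 and 1.82 in libraries labelled KO, 0.461 and 0.478 in Nr4a1-OV and 0.192 and 0.193 in RV-GFP. Eomes thus exceeded Tbx21 in both cultured libraries labelled KO and in no other cultured library. Tim-3+ cells had ratios of 0.425 and 0.321, below the 0.736 and 0.626 of Nr4a1RFP+ cells. Ly108+ ratios lay at 0.729 to 0.994 (WT) and 0.713 to 1.02 (labelled KO) and overlapped.

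The ratio of Id2 to Id3 was 1253 and 2372 in Tim-3+ cells, where Id3 stood at 0.927 and 0.330 RPKM, and 31.6 and 23 in Nr4a1RFP+ cells. In culture it was under 1 in Nr4a1 WT (0.779 and 0.595) and 6.20 and 5.40 in libraries labelled KO. Prdm1 exceeded its antagonist Bcl6 74.5 and 52.1 times in Tim-3+ cells and 1.40 and 1.35 times in Nr4a1RFP+ cells. Every Ly108+ library held less Prdm1 than Bcl6, with ratios of 0.225 to 0.390. Zeb2 was at 1.80 and 1.78 times Zeb1 in RV-GFP and at 0.706 and 0.690 times in Nr4a1-OV, and under a ratio of 0.12 in all 6 Ly108+ libraries. These ratios are descriptions with no test.

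**Figure D3:**
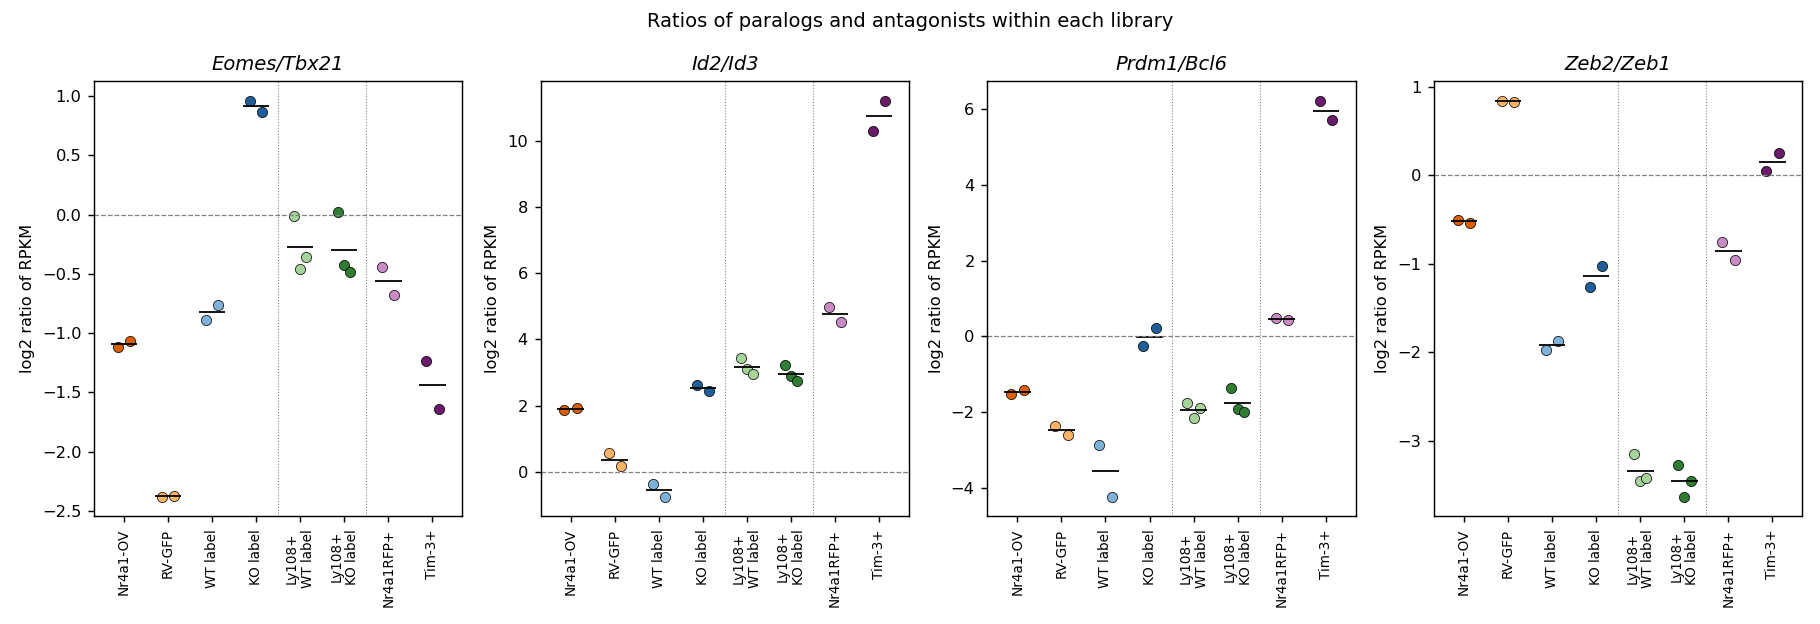
Log2 ratios of RPKM within each library for 4 pairs, with 1 point per library, a bar for the group mean of log2 ratios and a dashed line at equal levels. Cultured libraries labelled KO lie above the line for Eomes/Tbx21 (ratios 1.95 and 1.82), and Tim-3+ libraries stand highest for Id2/Id3 and Prdm1/Bcl6.

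Paralogs and partners of the 7 genes split between directions. In culture, 5 of 13 were higher and 5 lower in libraries labelled KO, against 18.4% and 21.6% of all genes, among them Runx2, a paralog of Runx3 (log2 fold change 1.64, adjusted p = 3.76e-14, edgeR), and Id3 (-2.09, adjusted p = 9.75e-12, edgeR). Between Nr4a1-OV and RV-GFP, 4 of 13 were higher, including Zeb1 at 0.81 (adjusted p = 2.38e-10, edgeR), and 5 lower, including Id3 at -1.12 (adjusted p = 4.21e-08, edgeR); 60.9% of all genes were called there, so this count is near the background. Nr4a1RFP+ cells held more of 5 of 11 tested members than Tim-3+ cells, led by Id3 at 2.55 (adjusted p = 0.00021, limma) and Bcl6 at 1.06 (adjusted p = 0.000948, limma), and less of 1, Runx2, against 9.08% and 8.61% of all genes. The call of Runx2 ended without Nr4a1RFP+ replicate 1 (adjusted p = 0.142, limma) or 2 (adjusted p = 0.25, limma). In Ly108+ cells 0 of 11 passed by limma, 5 with an unadjusted p under 0.05, and edgeR on recovered reads called 0 of 13; limma called 4.45% of all genes.

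Effector products, which are granule, cytokine, chemokine and receptor genes of effector cells, were called in 3 of the 4 comparisons by the main tests. Of the 15 genes listed, 11 were tested in culture and 14 in each TIL comparison, so the genes counted differ between them. In culture 9 of 11 were higher and 1 lower in libraries labelled KO, against 18.4% and 21.6% of all genes, with Gzmb, which encodes granzyme B, at 2.05 (adjusted p = 5.38e-16, edgeR) and Prf1, which encodes perforin, at 2.17 (adjusted p = 1.39e-17, edgeR). In Nr4a1-OV 7 of 11 were lower and 3 higher than in RV-GFP, against 29.6% and 31.3% of all genes, with the chemokine genes Ccl3 at -2.22 (adjusted p = 2.06e-15, edgeR) and Ccl4 at -1.69 (adjusted p = 5.76e-16, edgeR) lower and Ccl5 at 1.34 (adjusted p = 4.39e-14, edgeR) higher. Nr4a1RFP+ cells held less of 13 of 14 than Tim-3+ cells, such as Gzmb at -3.88 (adjusted p = 0.000131, limma), against 8.61% of all genes. In Ly108+ cells 0 of 14 passed by limma, 6 with an unadjusted p under 0.05, while edgeR on recovered reads called 2 of 13; limma called 4.45% of all genes.

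A list of 12 genes of naive, memory and stem-like cells was examined next. In Nr4a1-OV 10 of 12 were higher than in RV-GFP and 1 was lower, against 31.3% and 29.6% of all genes. The homing receptor gene Ccr7 was higher at 3.08 (adjusted p = 3.03e-19, edgeR). The lower gene was Slamf6 at -1.50 (adjusted p = 9.78e-14, edgeR). Slamf6 was also lower in cultured libraries labelled KO, at -1.10 (adjusted p = 9.87e-11, edgeR). In libraries labelled KO in culture 7 of 12 were lower, such as Klf2, a regulator of T cell egress, at -1.47 (adjusted p = 3.76e-10, edgeR), and 3 higher, such as the interleukin-7 receptor gene Il7r at 1.44 (adjusted p = 3.68e-12, edgeR), against 21.6% and 18.4% of all genes. Nr4a1RFP+ cells held more of 9 of 12 than Tim-3+ cells, such as the chemokine receptor gene Cxcr5 at 2.96 (adjusted p = 4.67e-05, limma), against 9.08% of all genes.

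Among 12 cytokine receptors and signalling genes that feed these regulators, 10 were higher in libraries labelled KO in culture and 0 lower by edgeR, against 18.4% and 21.6% of all genes. The interleukin-12 receptor gene Il12rb2 stood at 1.99 (adjusted p = 1.12e-16, edgeR) and Stat3 at 0.92 (adjusted p = 8.83e-11, edgeR). In Nr4a1-OV 10 of 12 were higher as well, with Il12rb2 at 1.52 (adjusted p = 3.94e-15, edgeR) and Stat3 at 1.25 (adjusted p = 2.84e-13, edgeR), and 1 was lower, against 31.3% and 29.6% of all genes. Nr4a1RFP+ cells held more of 3 of 11, led by Stat5a at 0.97 (adjusted p = 0.00128, limma), and less of 3, led by Il12rb2 at -1.64 (adjusted p = 0.000794, limma), against 9.08% and 8.61% of all genes. In Ly108+ cells 2 of 12 were lower, Stat3 at -0.28 (adjusted p = 0.0263, limma) and Il12rb2 at -0.31 (adjusted p = 0.0386, limma), against 2.41% of all genes. Both Ly108+ calls ended without several single libraries, with adjusted p up to 0.131 for Stat3 and 0.155 for Il12rb2 (limma).

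Of 9 lineage and residency genes, 8 were tested in culture. Among these 8, 5 were higher and 2 lower in libraries labelled KO, against 18.4% and 21.6% of all genes. Cd69 was higher at 0.57 (adjusted p = 6.45e-08, edgeR) and Cxcr6 at 0.81 (adjusted p = 8.68e-07, edgeR). The 2 lower genes were Zfp683 at -2.20 (adjusted p = 4.51e-05, edgeR) and Itgae at -0.85 (adjusted p = 0.00693, edgeR). Both were low, at means of 0.274 and 0.301 RPKM under the KO label and 1.28 and 0.543 RPKM in WT. In Nr4a1-OV 2 of 8 were higher and 3 lower, a share near the 60.9% of all genes called. Cd8a, a gene of the lineage that Runx3 maintains, was lower at -0.88 (adjusted p = 5.62e-12, edgeR), and Zbtb7b, which encodes the CD4 lineage factor ThPOK, was higher at 1.05 (adjusted p = 3.68e-08, edgeR). Cxcr6, a residency marker, was the 1 of 4 tested genes that passed between Nr4a1RFP+ and Tim-3+ cells, at -2.40 (adjusted p = 0.000436, limma), against 17.7% of all genes. In Ly108+ cells 0 of 7 passed by limma, 1 with an unadjusted p under 0.05, and edgeR on recovered reads called 0 of 8; limma called 4.45% of all genes.

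**Figure D4:**
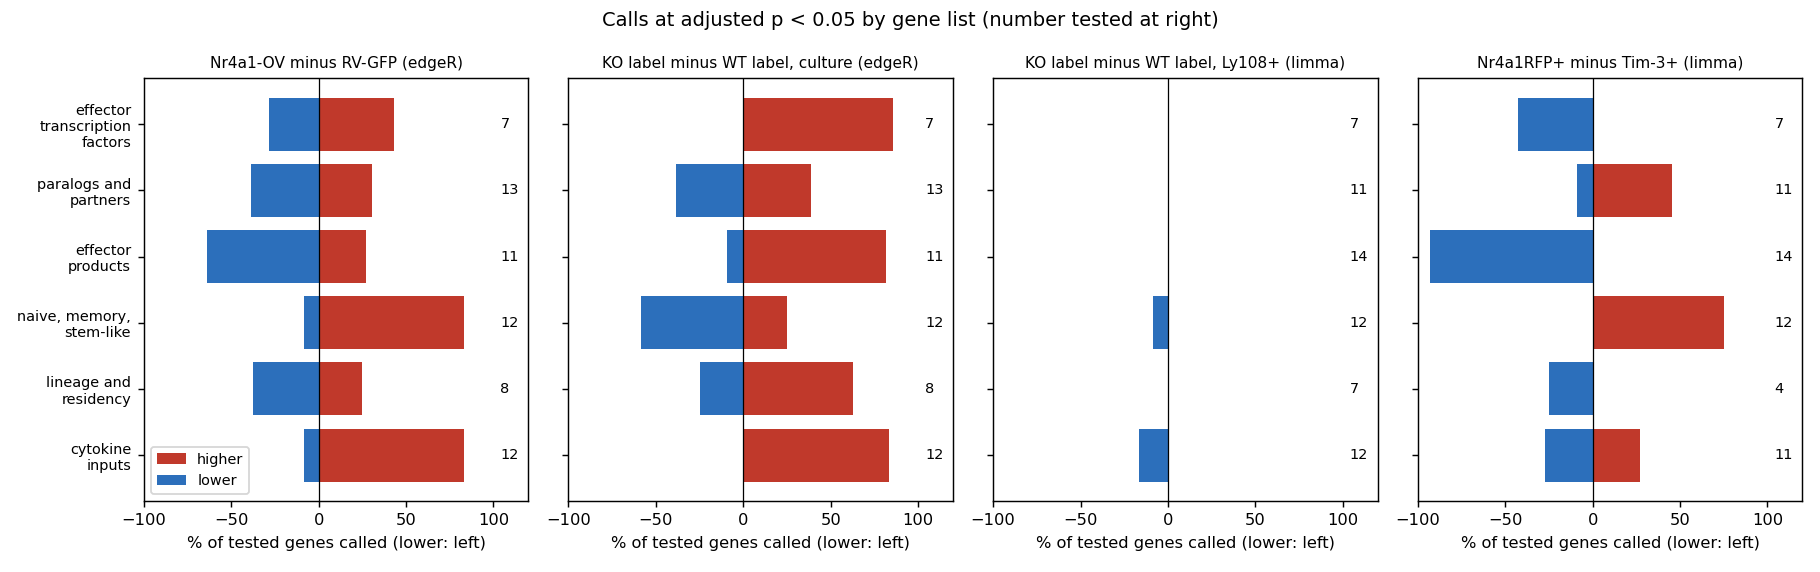
Share of tested genes called higher (right, red) or lower (left, blue) at an adjusted p of 0.05 for the 7 regulators and 5 lists of related genes in 4 comparisons, with the number tested at the right of each row. For the KO label in culture 6 of 7 regulators and 9 of 11 effector products are higher, and in Ly108+ cells 0 of 7 regulators are called.

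Likeness of pattern was measured as the root mean square difference of log2(RPKM + 1), centred within each table, over the 18 libraries and 8658 genes. Prdm1 and Id2 were each other's nearest gene (0.22), beside own deviations of 0.65 and 0.57. Bhlhe40 was nearest to Wdfy1 (0.10, own deviation 0.33), and Eomes to Wdfy1 and then Bhlhe40 (0.20 each, own deviation 0.46). Zeb2 was nearest to Nr4a2, a paralog of Nr4a1 (0.15, own deviation 0.67), followed by Zswim6 and Cd274, which encodes PD-L1. Tbx21 was nearest to Tef, Usp36 and Vsir (0.14 to 0.17, own deviation 0.60), and Runx3 to Ptpn22 (0.10, own deviation 0.27). Libraries of a group share their treatment and table, so these values are descriptions.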

How the data were processed

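Gene expression of mouse CD8+ T cells was read from 3 tables. Per the submitters' processing notes, the authors used Trim Galore, HISAT2, edgeR and DESeq2 with build mm10; versions, read counter and annotation are not given in the sources used here. The cultured table held whole-number counts as deposited by the authors, and all tables held RPKM, which the authors scaled by gene length and library size. The log2 fold changes and each adjusted p-value deposited by the authors come from their own comparisons and serve only as a reference. The 2 columns that matched no labelled library, in the authors' table of Nr4a1RFP+ and Tex cells, were not used.

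Counts were tested with edgeR 4.0.16 in R 4.3.3 (filterByExpr, TMM, quasi-likelihood F test, 8 cultured libraries in 1 fit), and RPKM with limma 3.58.1 (limma-trend on log2(RPKM + 1), keeping genes that reached 1 RPKM in a number of libraries no lower than the size of the smaller group). All tests were two-sided, with Benjamini-Hochberg adjustment over all genes tested. Both pipelines were tested on simulated data. DESeq2 1.42.0, other scalings, filters, a pseudocount of 0.1, replicate blocks and leaving out each library were alternatives. Gene lengths implied by cultured counts and RPKM gave reads for 88.8% to 95.6% of tumour genes; of values under 200 reads, 97.8% to 98.9% were whole within 0.05. edgeR on these reads called 2205 genes for Nr4a1RFP+ against Tim-3+ cells and 978 for Ly108+ cells.

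All 7 genes were named in every comparison, along with up to 3 members per list and direction by smallest p, from which examples are given, and the 3 nearest genes by likeness. A few genes that this rule names are not reported here. The 7 genes and the lists were chosen with earlier results of these data known. Positions are from GENCODE M21 (GRCm38). Figures were drawn with matplotlib 3.10.9 in Python 3.11.15.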

Additional observations from a re-analysis of the deposited data

Results flagged for a closer look

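The effect of the Nr4a1 KO label differed between Ly108+ TIL and culture for 5 genes by the test of the difference itself (limma, log2(RPKM + 1), Benjamini-Hochberg over 11693 genes). The difference, Ly108+ minus culture, was -1.64 for Eomes, -1.21 for Bhlhe40, -0.98 for Zeb2, -0.92 for Id2 and -0.80 for Prdm1. Of all genes tested, 25.9% were called for this difference. Culture and tumour also differ in stimulation, which cannot be told apart from the setting. Their tables were normalised separately, but each difference between KO and WT labels lies within the same table, so that a shared scale largely cancels.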

How the results depend on the processing

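No result reversed. The 7 genes kept their counts of calls for Nr4a1-OV against RV-GFP (5), for the KO label in culture (6) and for RV-GFP against Nr4a1 WT (7) under every alternative run, replicate block included. For Nr4a1RFP+ against Tim-3+ cells the count of 3 became 5 with a replicate block and 5 with edgeR on recovered reads and a replicate block, and ranged from 2 to 5 without 1 library; the block added Tbx21 (adjusted p = 0.0438, limma) and Eomes (adjusted p = 0.0224, limma). All genes called there went from 1682 to 3034 with edgeR on recovered reads and a replicate block, and ranged from 723 to 3421 without 1 library. In Ly108+ cells the count of 0 became 1 with edgeR on recovered reads and a replicate block (Zeb2, log2 fold change -0.32, adjusted p = 0.00531), and all genes called went from 501 to 978 with edgeR on recovered reads, to 1997 with the block added, and ranged from 69 to 1686 without 1 library. For the comparison of the KO label between Ly108+ cells and culture, the count of 5 ranged from 4 to 6 and all genes called from 1782 to 3709 without 1 library, beside 3025; the block added Runx3 (adjusted p = 0.00533, limma). Deviations of same-numbered libraries correlated across genes at 0.22 for Nr4a1RFP+ and Tim-3+ cells, 0.12 for Nr4a1-OV and RV-GFP, 0.053 for cultured KO and WT labels, and 0.10, 0.16 and -0.11 for Ly108+ cells; no label ties the numbers to an animal or batch, so they were not treated as pairs. The alternative that joins edgeR on recovered reads with a replicate block was chosen after seeing the data. The cause of these shifts was not tested. With 2 libraries in most groups, leaving 1 out leaves a lone library that is assumed to vary like the others. Prdm1 rests on 14 to 143 counts a library in culture, which limits its precision.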
